A study of Caenorhabditis elegans with 4 samples.

Results

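The X chromosome of Caenorhabditis elegans carried 1711 of the 9165 PHA-4 peaks mapped in late embryos, or 18.7% of the list. Its members were all peaks whose chromosome is given as X, so neither score nor width entered their choice. The other 7454 peaks lay on the 5 autosomes and serve here as the comparison, pooled and one chromosome at a time.

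PHA-4 is the worm's forkhead factor of the FoxA family and specifies the pharynx, the feeding organ. FoxA proteins bind DNA through a winged-helix domain and are known in mammals for opening closed chromatin during the formation of the gut. Hermaphrodites have a pair of X chromosomes, and a dosage compensation complex that binds along both of them lowers their transcription from the embryo onwards. Autosomes have gene-dense centres with little recombination between more repetitive arms, and on X this contrast between centre and arms is known to be weaker.

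Binding was measured by ChIP-seq, in which crosslinked chromatin is pulled down with an antibody and its DNA sequenced. All libraries came from strain OP37 hermaphrodites, which carry the mutation unc-119(ed3) on chromosome III and the transgene wgIs37. This transgene holds pha-4::TY1::EGFP::3xFLAG together with unc-119(+). Cultures were kept at 20 °C, and late embryos were fixed with formaldehyde. An anti-GFP antibody recovered the tagged PHA-4 in 2 ChIP libraries, and 2 input libraries of sonicated chromatin without immunoprecipitation, 1 per replicate, served as their control. The transgene was introduced by biolistic transformation into unc-119(ed3) animals, and the rescue gene unc-119(+) came with it. Whole embryos were used, so that peaks from different tissues are merged. The labels do not say whether the replicates were separate cultures.

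The deposited result is 1 peak list combined over the replicates, called with the program PeakSeq on the WormBase WS180 build. Each peak has a start, an end and a q-value, which is the caller's adjusted p for ChIP over input, so that a small q marks a good score. No tag counts or values per library were used here. The depth behind a peak is therefore unknown, no value has a replicate error, and no difference between X and the autosomes was tested. With 1 X against 5 autosomes an exact permutation test could not give a p below 0.167. Intervals in brackets are exact 95% intervals (Clopper-Pearson for shares, order statistics for medians). They cover counting error over peaks only and treat neighbouring peaks as independent. Genes and sequences at the peaks were not analysed here.

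The 1711 peaks of X lay between positions 47826 and 17714644, a span of 17.67 Mb that made up 17.7% of the total span of the list. Peaks covered 709431 bases of it, or 4.02% of the X span, against 3.28% of the pooled autosomal span. Every autosome had a lower covered share than X, from 2.43% on V to 3.92% on III. The number of peaks per Mb set X apart much less. X had 96.8 peaks per Mb of span, against 90.6 on the pooled autosomes, a ratio of 1.07 (1.01 to 1.13). Peak density on X was 0.833 times that of III, 0.947 times that of II and 0.969 times that of I. It was 1.08 times that of IV and 1.64 times that of V, the sparsest chromosome. With V left out of the pool the ratio turned to 0.957 (0.906 to 1.01). With V in the pool, the ratio was 0.998 among the better-scoring 4582 peaks of the list (q up to 1.14e-06). Among the best-scoring 10% (916 peaks, q up to 3.51e-25) it was 1.19, also with V in the pool. Of these 916 peaks V held 86 over a span of 20.89 Mb, and X held 186 over 17.67 Mb. I held 165 over 14.97 Mb, II 163 over 15.27 Mb and III 179 over 13.75 Mb. The ratio for the best-scoring 10% was not computed without V.

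Peaks were spread along X with little change in density from one end to the other. When the X span was divided into 10 equal parts, the first part at the left end held 131 peaks, or 74.2 per Mb. The next 3 parts held 180, 190 and 184 peaks, or 102, 107.5 and 104 per Mb. The remaining 6 parts held between 165 and 184 peaks each, or 93.4 to 104 per Mb. Density on X was thus lowest at the left end and varied by a factor of 1.45 between its lowest and highest parts. On the autosomes the same factor was 1.95 on I, 2.04 on III, 2.55 on IV, 3.52 on II and 4 on V. The SD of density over the 10 parts was 9.34 peaks per Mb on X and between 20.6 and 35.4 peaks per Mb on the autosomes.

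Peaks along X were alike in width and varied more in score. Their median width lay between 327 and 345 bp in all 10 parts, and the exact intervals of these medians overlapped. The median −log10 q ran from 4.67 in the fifth part to 6.63 in the eighth. Peaks among the best-scoring 10% of the list made up between 8.19% and 13.3% of a part. The sparse left end lay within these ranges, with a median width of 334 bp (308 to 370) and 13.0% of its peaks among the best-scoring 10%.

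The middle 33.3% of the X span held 592 peaks, with 567 to its left and 552 to its right. For the best-scoring 10% the middle of X held the fewest, with 54 peaks against 63 on the left and 69 on the right. That is 29.0% (22.6 to 36.1) of the 186 such peaks on X, and 44.1% (40.5 to 47.8) of the 730 such peaks on the autosomes. Poorly scoring peaks were spread slightly differently. Of the 903 X peaks in the poorer-scoring 4583 of the list, 35.9% lay in the middle of X, against 40.3% on the autosomes. On X the middle thus held a smaller share of the best peaks than of the poor ones, and on the pooled autosomes a larger share. X shared this direction with III, where the middle held 38.5% of the best-scoring 10% and 39.97% of the poorer-scoring 4583. Whether these shares differ beyond the clustering of peaks was not tested.

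In consecutive windows of 100 kb, most X counts lay near the middle of their range. Its 177 windows held between 0 and 23 peaks, with a median of 9, quartiles of 7 and 12 and a mean of 9.66 ± 4.25 (SD over windows). The 820 autosomal windows held between 0 and 29 peaks, with a median of 8 and a mean of 8.99 ± 5.20. A count from 5 to 15 was found in 140 X windows (79.1%), against 66.7% of autosomal windows and a range from 54.8% on V to 80.5% on I. Windows with 3 peaks or fewer made up 7.91% on X and 14.6% on the autosomes. Without V, where they made up 32.7%, the autosomal share was 8.5%, and I (5.37%) and III (2.92%) lay below X. Windows with 18 peaks or more made up 3.95% on X and 7.07% on the autosomes. Of the autosomes only V lay below X, at 1.44%, and without V the autosomal share was 8.99%. Of the 35 windows of the list with more than 19 peaks, 1 lay on X, and of the 16 with exactly 19 peaks, 2 lay on X. X had 177 of all 997 windows.

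**Figure D1:**
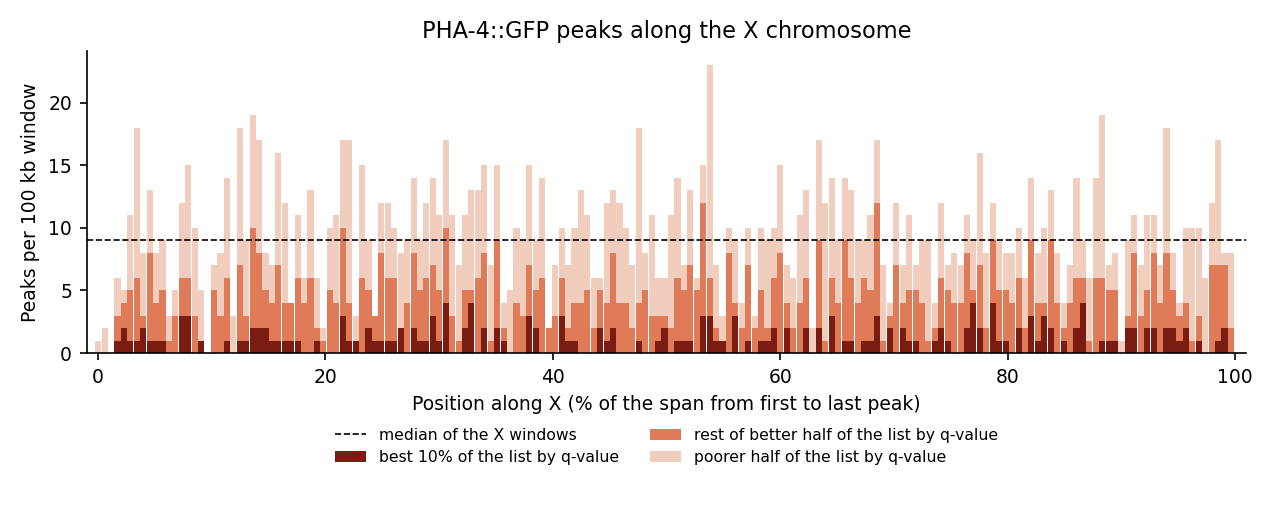
Number of PHA-4 peaks in each 100 kb window along X (vertical axis), by position as a percentage of the span from the first to the last peak (horizontal axis). Each bar is split by score, with the best-scoring 10% of the list darkest and the poorer-scoring 4583 peaks lightest, and the dashed line is the X median of 9; counts vary between 0 and 23 with no rise towards the middle, and the tallest bar, near 54% of the span, consists mainly of light segments.

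The evenness of X became clearer with the size of the window. The variance of the counts divided by their mean measures unevenness and is 1 for independent placement at constant density. On X it was 2.01 in windows of 50 kb, 1.87 at 100 kb, 2.04 at 200 kb, 2.18 at 500 kb and 1.98 at 1000 kb. Unevenness on X therefore did not grow with scale. On the autosomes it did: the 5 values ran from 1.91 to 2.64 at 50 kb, from 1.85 to 3.18 at 100 kb and from 2.62 to 4.29 at 200 kb. They ran from 3.88 to 7.36 at 500 kb and from 6.03 to 11.6 at 1000 kb. In windows of 50 and 100 kb chromosome I lay below X, and from 200 kb upwards X was below each autosome.

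The 17 windows of 1000 kb on X had a coefficient of variation of 14.3%, against 24.6 to 44.3% on the autosomes. The same order was seen when only the better-scoring 4582 peaks were counted, with 1.18 on X and 3.63 to 7.20 on the autosomes at 1000 kb. Taking the variance within the left, middle and right parts of each chromosome removes differences in mean count between these parts, but not those inside a part. At 1000 kb it left 2.21 on X and 3.18 to 7.18 on the autosomes. At 500 kb it left 2.30 on X and 2.37 to 5.11 on the autosomes, so that the lowest autosome was close to X. At 200 kb it left 2.08 on X and 2.07 to 2.99 on the autosomes, so that there 1 autosome lay just below X. The window sizes of 50 and 1000 kb and these last 2 recomputations were chosen after the data had been seen.

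**Figure D2:**
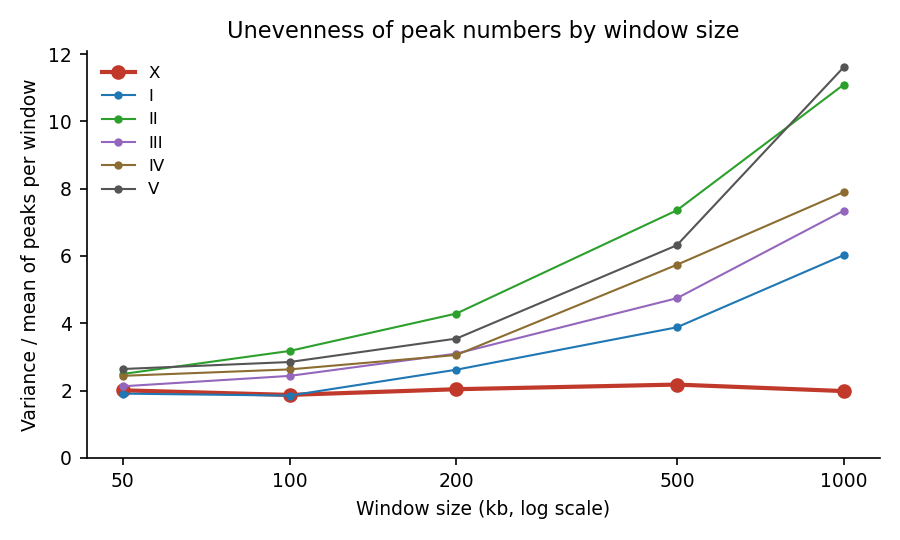
Variance divided by mean of the number of peaks per window (vertical axis) for windows of 50 to 1000 kb (horizontal log axis), with 1 line per chromosome and X in heavy red. The X line stays between 1.87 and 2.18, while the autosomal lines climb to between 6.03 and 11.6 at 1000 kb.

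Neighbouring windows of X were nearly unrelated in their counts. Pearson's r between the count of a 100 kb window and that of the next was 0.01 over X and between 0.16 and 0.39 on the single autosomes. Counts of better- and poorer-scoring peaks in the same window were weakly related, with r = 0.26 and Spearman's rho = 0.29 over the 177 X windows. On the autosomes the r of the same counts was 0.25 on I, the lowest, and 0.48 on II, the highest. These are descriptions across windows of 1 list, which share their libraries and the caller.

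The 5 densest windows of X lay near 3.4, 12.5, 13.6, 53.8 and 88.3% of the way along its span. The window at 3.4% lay in the first of the 10 parts of X, the sparsest. The window from 9500001 to 9600000, near the middle of X, held 23 peaks, and 3 windows elsewhere in the list held more. Of these 23 peaks, 6 were among the better-scoring 4582 and 3 among the best-scoring 10%. Their median q was 3.86e-04 and their best 2.48e-36, so that most peaks in this crowded window were weak calls. The window from 2400001 to 2500000 held 19 peaks, 10 of them among the better-scoring 4582, with a median q of 5.39e-08. The window from 15600001 to 15700000 also held 19 peaks, 6 of them among the better-scoring 4582. The windows from 600001 to 700000 and from 2200001 to 2300000 held 18 peaks each, with 6 and 7 of them among the better-scoring 4582. At 18 peaks they were tied with 2 further X windows and were taken by position. In 4 of these 5 windows the majority of peaks belonged to the poorer-scoring 4583, as did 52.8% of all X peaks. Strong peaks did not pile up in windows either. The largest number of best-scoring 10% peaks in any X window was 4, and 67 of the 177 windows held none.

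The longest empty stretches of X lay at its left end. The longest ran from 1644192 to 1845503, a length of 201.3 kb. The second ran from 133329 to 324181 (190.9 kb) and the fifth from 1128875 to 1222283 (93.4 kb). The third and the fourth, from 10228478 to 10332233 (103.8 kb) and from 4019122 to 4113281 (94.2 kb), lay elsewhere on X. Of the 5 longest stretches, 3 thus lay wholly or mainly in the first of the 10 parts of X, the part with the fewest peaks. The peaks that border the 2 longest stretches were among the poorer-scoring 4583 on 3 of 4 sides, beside 52.8% of all X peaks. They had q = 0.00319 and 8.85e-08 at the longest and 0.00213 and 6.57e-04 at the second.

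Stretches over 50 kb were found all along X, with 6 in the first of the 10 parts, 662.3 kb in all, and 3 to 5 in each other part, 176 to 329.6 kb in all. The longest of X had rank 7 in the list, behind stretches of up to 292254 bases on the autosomes. X had 3 of the 50 longest in the list. Its stretches over 50 kb numbered 37 and took up 15.4% of its span, against 23.6% of the pooled autosomal span and 17.7% without V. Chromosomes I and III had less of their span in such stretches (13.3% and 11.9%), and II, IV and V had more, up to 41.1% on V. Among the best-scoring 10% alone the longest stretch without a peak was 419645 bases on X and 2789101 bases on the autosomes.

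The median distance between the midpoints of neighbouring peaks was 4952 bp on X (4516 to 5428), against 4624 bp on the pooled autosomes (4410 to 4860). X lay inside the autosomal range, from 3989 bp on IV to 6718 bp on V. The direction turned without peaks under 200 bp, with 5556 bp on X and 6114 bp on the autosomes, and also in the best-scoring 10% and after merging over 1000 bases. Distances under 1 kb made up 9.36% on X and 11.1% on the autosomes, and those over 50 kb made up 2.16% on X and 3.33% on the autosomes. Both extremes of spacing were thus less frequent on X than on the pooled autosomes, although single autosomes lay to either side. The closest pair of X peaks was separated by 202 bases, and the closest on each autosome by 200 bases. Of the 1710 neighbouring pairs on X, 55 were separated by fewer than 300 bases.

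Runs were defined as 3 or more successive peaks with at most 2000 bases between each and the next. X had 127 runs holding 477 peaks, or 27.9% of its peaks (25.8 to 30.1). The autosomes had 555 runs holding 29.0% of their peaks, from 22.8% on V to 33.9% on II. Among merged peaks, where gaps of up to 1000 bases were closed, the order turned, with 9.58% on X and 8.14% on the autosomes. A further 211 pairs and 812 single peaks made up the rest on X. Isolated peaks, with no other peak within 20 kb on either side, numbered 55 on X (3.21%), against 263 on the autosomes (3.53%). The pooled value rests on V, with 7.77%, since X was above each of the other 4 autosomes and without V the autosomal share was 2.69%.

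The 3 X runs with the most peaks differed in the strength of their peaks. The run with the most members, 8 peaks between 3900804 and 3907835, was weak throughout. Its best q was 1.55e-07, only 1 of its peaks was among the better-scoring 4582, and its peaks were 19 to 461 bp wide. To its left, the 7 peaks between 3816381 and 3827367 included 2 of the best-scoring 10%, with a best q of 1.67e-63, and had a median width of 747 bp. The third run, 7 peaks between 2432391 and 2439995, lay in the second densest window and had a best q of 6.60e-32. X thus held both tight groups of weak calls and tight groups around strong peaks.

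X was more frequent among the very best scores than in the list as a whole. Of the 40 peaks in the list with q below 1e-100, 16 lay on X, or 40% (24.9 to 56.7), beside its 18.7% of all peaks. Chromosome III held 7 of the 40, I held 6, II and IV held 5 each and V held 1. Per 10 Mb of span that was 9.06 on X, 5.09 on III and 0.479 on V. X held 3 of the best 10 and 4 of the best 20, and its share shrank again further down the list. It held 27 of the best 100, 55 of the best 200 (27.5%) and 109 of the best 500 (21.8%). Of the best-scoring 10% it held 186. That was 10.9% of X peaks (9.43 to 12.4), against 9.79% of autosomal peaks, and lay inside the range of single autosomes from 6.96% to 11.2%. Of the better-scoring 4582 it held 808, which was 47.2% of X peaks, against 50.6% of autosomal peaks.

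At the weak end X was also above the pooled autosomes. Peaks with q of 0.001 or more made up 24.3% of X peaks (22.2 to 26.4) and 21.0% of autosomal peaks (20.0 to 21.9), with IV at 24.4% above X. The class between 1e-50 and 1e-10 was correspondingly smaller, with 27.8% of X peaks and 30.3% of autosomal peaks. When the list was divided by q into 10 groups of equal size, the share on X was 20.3% in the best group, 15.2% in the fourth and 21.5% in the ninth. The fourth group, with q between 1.89e-11 and 1.45e-08, had the smallest share. The divisions by q and the numbers of best peaks were chosen after the values had been seen.

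**Figure D3:**
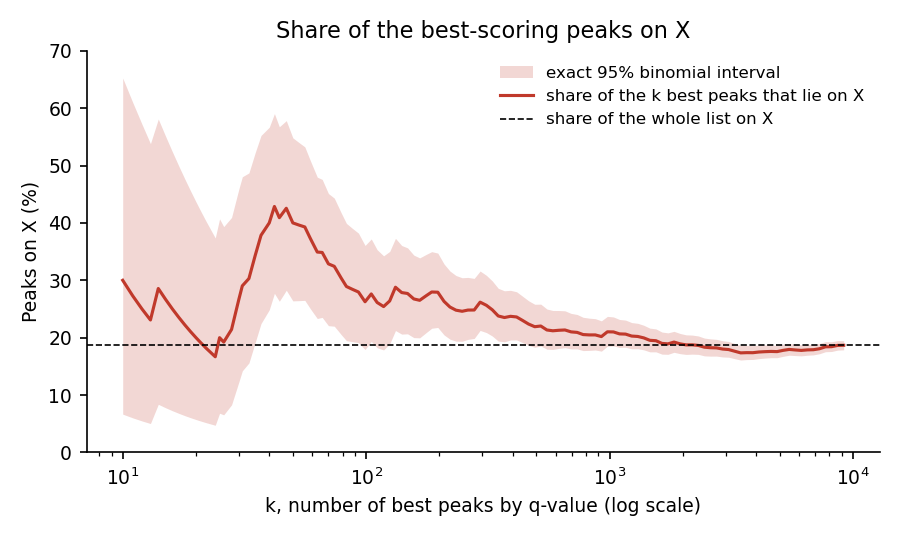
Percentage of the k best-scoring peaks that lie on X (vertical axis) for k from 10 to the whole list (horizontal log axis), with its exact 95% binomial interval shaded and the share of the whole list on X dashed. The share is 20% among the best 20 peaks, 40% among the best 40 and 50, 27% among the best 100, then runs below the dashed line at 18.7% for part of the list, with 17.4% at k = 3459, and meets it at the end.

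The best peak of X ran from 11605261 to 11606597, was 1337 bp wide, had q = 1.30e-192 and had rank 5 in the list. Only 359 bases separated it from a much weaker call on its left, 1874 bp wide with q = 5.17e-09. The second, from 10765234 to 10768265 (3032 bp, q = 5.43e-190), closed a stretch of 53171 bases without a peak on its left and had a neighbour 353 bases to its right. The third ran from 16929262 to 16931964 (2703 bp, q = 7.93e-174), with its nearest neighbour 906 bases away.

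The fourth of X, from 15273828 to 15278188, was the widest peak of the whole list at 4361 bp, with q = 6.65e-157. Its nearest neighbour, 829 bases to the right, was itself strong, with q = 4.16e-68 and rank 102. The fifth ran from 14559173 to 14561031 (1859 bp, q = 2.05e-127), and the sixth from 11093807 to 11094496 (q = 1.67e-112). At 690 bp the sixth was the narrowest of the leading 10. The seventh ran from 16611246 to 16613441 (2196 bp, q = 1.84e-111) within one of the windows of 18 peaks. The eighth ran from 9100662 to 9103585 (2924 bp, q = 4.11e-110), 415 bases from a neighbour of 1280 bp with q = 4.71e-20.

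The ninth, from 13143089 to 13145647 (2559 bp, q = 3.70e-109), stood 1684 bases from its nearest neighbour, a sliver of 21 bp with q = 0.00627. The tenth ran from 14525431 to 14526224 (794 bp, q = 2.12e-105) and was the single one of the 10 without another peak within 10 kb. Most leading peaks of X were thus broad and had a close neighbour. Of the 10, 8 were 1000 bp wide or more, beside 4.21% of all X peaks, and 7 had a neighbour within 1000 bases. Over all X peaks the lower quartile of the distance to the nearest neighbour was 738 bases. The median distance from a leading peak to its nearest neighbour was 868 bases, against 1586 for the 186 X peaks in the best-scoring 10% and 1794 for all X peaks. Numbers of peaks within 10 kb differed less, with a mean of 3.1 for the leading 10 and 2.74 for all X peaks. No other peak lay within 10 kb for 10% of the leading peaks and 11.75% of all X peaks. The nearest neighbour of a leading peak was among the best-scoring 10% in 1 case and among the poorer-scoring 4583 in 3. Wide peaks leave less room beside them and distances here run from edge to edge, and how far this bears on the short distances was not tested.

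**Figure D4:**
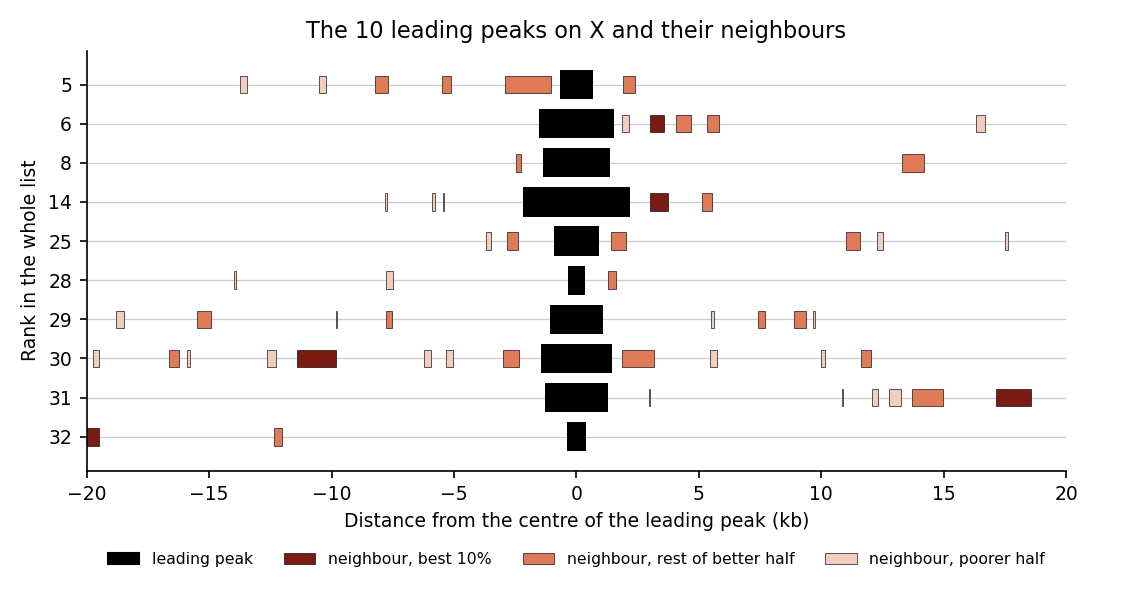
Peaks within 20 kb of the 10 leading peaks of X, drawn to scale by distance from the centre of the leading peak (horizontal axis, kb), with 1 row per leading peak by its rank in the list (vertical axis). Black bars are the leading peaks, 690 to 4361 bp wide, and neighbours are coloured by score; in 7 of the 10 rows a neighbour begins within 1000 bases of the black bar, and 1 row has none within 10 kb.

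All 10 leading peaks lay to the right of the midpoint of the X span, between 51.3% and 95.6% of the way along it. This lean faded as more peaks were counted. Of the 16 X peaks with q below 1e-100, 12 lay to the right of the midpoint and 4 to the left. Of the best 25 it was 15 and 10, of the best 50 it was 23 and 27, and of all 1711 it was 855 and 856. The share on the right was 100% (69.2 to 100) for the leading 10, 75% (47.6 to 92.7) for the 16 and 60% (38.7 to 78.9) for the best 25. The lean was noticed in the same data and was not tested.

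Peaks on X were wide. Their median width was 336 bp (327 to 345) with quartiles at 248 and 487 bp, against 306 bp (302 to 310) with quartiles at 215 and 429 bp on the autosomes. On V the median was 339 bp, close to that of X. Few X peaks were very narrow and many were broad, while the share from 200 to just under 500 bp was alike, with 62.9% on X and 62.0% on the autosomes. Peaks narrower than 200 bp made up 13.3% on X and 20.5% on the autosomes, with V lower than X at 11.4%. Peaks of at least 500 but under 1000 bp made up 19.6% on X and 14.6% on the autosomes. Broad peaks of 1000 bp or more numbered 72 on X, or 4.21% (3.31 to 5.27), against 211 or 2.83% (2.47 to 3.23) on the autosomes, where the highest share was 3.56% on V. Above 2000 bp the shares were alike, at 0.409% on X and 0.403% on the autosomes, with only 7 such peaks on X. X held 6 of the 20, 11 of the 50 and 30 of the 100 widest peaks of the list, beside 18.7% of all peaks.

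Wider peaks had better scores on X and elsewhere. Spearman's rho between width and −log10 q was 0.78 across the X peaks and 0.76 across the autosomal peaks, which are not independent replicates. Widths were therefore compared among peaks of like score, in the same 10 groups of the list by q. X peaks were wider than autosomal peaks in 10 of 10 groups, by 23 to 153 bp with a median of 49.5 bp, and the exact intervals of the medians did not overlap in any group. In the best group the median width was 760 bp on X (690 to 827) and 607 bp on the autosomes (578 to 641). This group had q from 1.38e-240 to 3.51e-25, so its scores were matched only coarsely, and X was more frequent among its very best. How far this bears on its difference was not tested. In the fifth it was 361 bp on X and 308 bp on the autosomes, and in the last 199.5 bp on X and 154 bp on the autosomes.

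The greater width at like score was shared with 1 autosome. X peaks were wider than those of I, II, III and IV in 10 of 10 groups each, with median differences of 36.5 bp against IV up to 77.3 bp against III. Against V they were wider in 4 of 10 groups, and the median difference was -3.75 bp, with a range from -28.5 to 80 bp. V peaks exceeded those of the other autosomes in 10 of 10 groups too, by a median of 65.5 bp. X and V therefore had the widest peaks at like score, while V had the lowest peak density and X one above IV and V but below I, II and III. Autosomes also differed among themselves, as III peaks were narrower than those of the other autosomes in 10 of 10 groups, with a median difference of -37.3 bp.

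**Figure D5:**
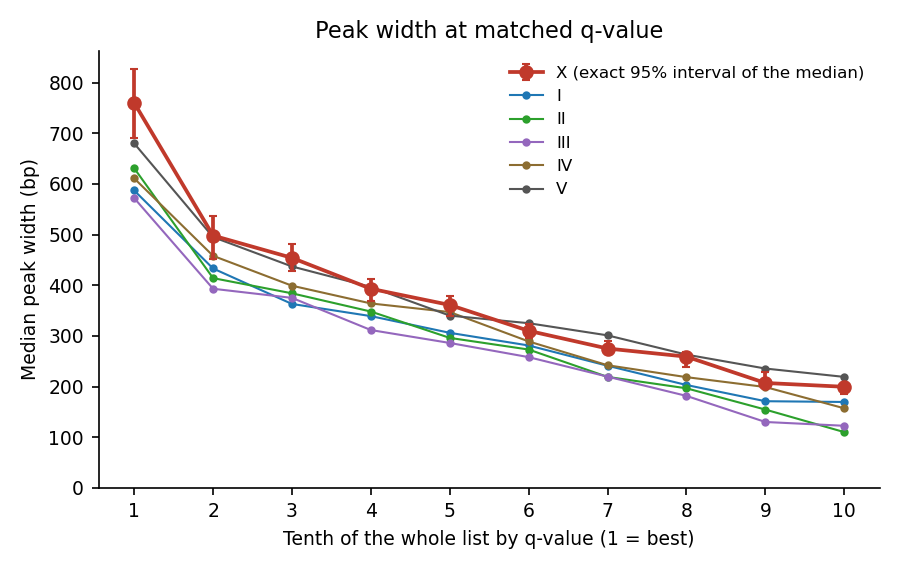
Median peak width in bp (vertical axis) in 10 groups of equal size by q-value, from best to worst (horizontal axis), with 1 line per chromosome; bars on X are exact 95% intervals of its median. X lies above I, II, III and IV in all 10 groups and crosses V, from 760 bp on X and 680 bp on V in the best group to 199.5 bp on X and 219 bp on V in the last.

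The 5 widest X peaks were the leading peaks of 4361, 3032, 2924 and 2703 bp and another from 4960286 to 4962950, which was 2665 bp wide with q = 4.39e-98 and rank 47. Together the 72 broad peaks took up 108.3 kb, or 15.3% of the bases covered on X, against 11.5% of those covered on the autosomes. They were spread evenly, with 22 in the left, 24 in the middle and 26 in the right 33.3% of the span. Of the 72, 50 (69.4%) were in the best-scoring 10%, against 70.1% of the broad peaks on the autosomes. Their relation to score was thus much the same on X as elsewhere.

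Of the 72 broad X peaks, 6 had q above 1e-10 (8.33%), against 15 of 211 on the autosomes (7.11%). The 6 are named here after their values were seen, and 5 of them were still among the better-scoring 4582. The widest was the call of 1874 bp beside the best peak of X. Others lay at 5820712 to 5822013 (1302 bp), 10592926 to 10594091 (1166 bp), 17460272 to 17461424 (1153 bp) and 2704363 to 2705432 (1070 bp), with q between 6.78e-10 and 2.30e-08. The weakest and the only one among the poorer-scoring 4583, from 1643180 to 1644191, was 1012 bp wide with q = 0.00319. It bordered the longest empty stretch of X, with 201312 bases free of peaks on its right and a neighbour 354 bases to its left. The 4 others named by position had neighbours at 491 to 1288 bases.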

How the data were processed

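The authors deposited 1 combined peak list for 2 ChIP and 2 input libraries. PeakSeq made the calls on WormBase WS180, per the file headers, and the q-value of each peak, at most 0.00997 here, is the authors' own. The sources used here do not give the aligner, versions or pooling. Replicates came as 1 list, so no sample was grouped or averaged. From starts, ends and q-values, Python 3.11.15 with numpy 2.4.6, pandas 2.3.3 and scipy 1.17.1 computed widths, distances, window counts and exact intervals. Coordinates are 1-based WS180 positions. The span from first peak start to last peak end stood in for chromosome length. Peaks were assigned to 100 kb windows from position 1 by midpoint, and the last partial window was left out. The named features are the 10 best and 5 widest X peaks, the 5 densest windows, the 5 longest empty stretches and the 3 longest runs by number of peaks, then by length. The X peaks, these rules and the comparisons were chosen with earlier results of these data known. Alternatives were score thresholds, merging over 1000 bases, a width minimum of 200 bp, other windows, bins and run rules, and each autosome left out in turn. The density ratio, the width difference at matched q, the longest empty stretch and the variance over mean were also tested on simulated data. The other statistics were not tested in this way. Gene names and the forkhead motif were not analysed, as no WS180 genome or annotation was used.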

Additional observations from a re-analysis of the deposited data

How the results depend on the processing

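X peaks were wider than autosomal peaks at matched q under all 9 alternatives run (35.5 to 62.8 bp). The ratio of peak density on X to that on the autosomes turned below 1 among the better-scoring 4582 peaks (0.998) and without chromosome V (0.957). With V in the pool it was 1.19 in the best-scoring 10%, 1.17 without peaks under 200 bp and 1.13 without chromosome III. In the better-scoring 4582 peaks, the best-scoring 10%, merged peaks and the list without peaks under 200 bp, the median width on X was 472.5, 760, 379 and 365 bp. The median spacing on X in these 4 was 11608, 59756, 7283 and 5556.5 bp, and on the autosomes 10796, 64608, 7368 and 6114 bp, so that X turned from wider to closer spacing in the last 3. The share of X peaks in runs in these 4 was 7.67, 0, 9.58 and 22.8%, against 12.4, 2.33, 8.14 and 23.7% of autosomal peaks. With at most 1000 bases between peaks it was 10.3% on X and 14.4% on the autosomes. With at most 5000 bases it was 53.5% and 54.5%, and with 4 or more peaks a run 15.4% and 16.7%. In the best-scoring 10% the variance over mean of window counts on X was 1.07 (1.36 on the autosomes), the middle share 29.0% and the longest empty stretch 419645 bases. The middle 50% of the X span held 51.8% of peaks. The covered share of X was 2.67% in the better-scoring 4582 and 0.961% in the best-scoring 10%. The share of X peaks among the best 1% of the list was 1.46%, against 0.885% of autosomal peaks. Among the better-scoring 4582 it was 47.2% against 50.6%. Among the best-scoring 10%, without peaks under 200 bp, it was 12.5% against 12.3%. Stricter lists hold fewer peaks by construction, and for other changes the cause was not tested. Windows of 50 and 1000 kb, and the autosomal shares of isolated peaks, sparse and dense windows and long stretches without V, were added after seeing the data. No paired analysis was possible because 1 combined list holds no replicate values, and no replicate could be left out. The motif search was not run. Depth limits cannot be given without tag counts.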
